A study of Mus musculus with 43 samples.

Results

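RNA from the non-blood fraction of mouse bone marrow was compared between 7 mice that had received JAK2V617F marrow and 8 mice that had received none. These 15 stroma libraries were chosen by their sample titles out of 43 libraries in the series, and all genes were considered. JAK2V617F is the activating change in the kinase JAK2 that drives most myeloproliferative neoplasms. Per the labels, the transplanted mice (4 males, 3 females) were wild-type CD45.1 animals that had not been irradiated or otherwise conditioned and received 5000000 whole marrow cells carrying JAK2V617F and the CD45.2 form of the blood-cell surface protein CD45. The mouse line that supplied the mutant marrow is not given in the sources used here. The untransplanted mice (4 males, 4 females) were wild-type CD45.1 animals matched for age and sex, whose age is not given. Marrow was taken after about 7 months. No group received wild-type marrow, so the mutant cells and the transplantation itself cannot be told apart. Cells were sorted as negative for both CD45 forms and for markers of red cells (Ter119), B cells (B220), T cells (CD8, CD4), NK cells (NK1.1) and myeloid cells (Ly-6G/Ly-6C, CD11b). Each library came from a separate animal.

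Marrow stroma is a mixture of cells. Mesenchymal niche cells that express the leptin receptor make CXCL12 and stem cell factor, which hold and sustain blood stem cells. Osteoblasts and chondrocytes build bone and cartilage, and sinusoidal and arteriolar endothelium lines the vessels through which blood cells leave. In myeloproliferative disease this niche can be remodelled and fibroblasts can deposit collagen. A gate that removes CD45-positive cells also has a known weak point. Red-cell precursors lose CD45 as they mature, and Ter119 and red-cell lysis must remove them.

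Library totals were 50733339 to 143228988 counts in untransplanted stroma, where N002 was the deepest, and 41210646 to 63970034 in transplanted stroma. The difference between the group means stayed within the spread of the libraries (exact two-sided permutation p = 0.289 over 6435 arrangements). One library stood apart before any result was drawn: N032, a transplanted male killed on a day of its own, had a median correlation with the other libraries of 0.908 across genes, against 0.955 to 0.968 for the other 14. It also had the lowest summed level of the niche-cell markers. Levels below are CPM, counts scaled to a library total of 1000000, and results that rest on N032 are given with and without it.

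The label was checked against markers. In libraries scaled together with control CD45.1 marrow, the niche chemokine Cxcl12 had a median of 2004 CPM in untransplanted stroma and 1.82 in marrow, and the collagen gene Col1a1 had 1753 and 3.41. The endothelial genes Cdh5, Plvap and Kdr stood at 10.9, 48.6 and 16.1 against 1.71, 0.968 and 0.468 CPM, whereas the adhesion gene Pecam1, also carried by blood cells, stood at 41.2 against 42.9. Of 24 endothelial genes 16 were at least 4 times higher in stroma, both groups together, than in marrow. So were 3 of 6 sinusoidal and 5 of 12 arteriolar genes, and 11570 of all 26191 genes tested. Blood-cell RNA was present too. Ptprc, which encodes CD45 itself, had a median of 143 CPM in untransplanted stroma and 1266 in marrow, and the neutrophil gene S100a8 had 3340 and 9068. The mesenchymal genes and part of the endothelial genes were thus higher in the stroma libraries than in marrow, and blood-cell RNA was not absent. The 2 kinds of library were made with different kits, which also enters these ratios.

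Of 26191 genes tested with edgeR's quasi-likelihood test, 391 passed at an adjusted p below 0.05 (1.49%), 122 of them higher in transplanted mice (0.466% of genes) and the rest lower (1.03%). The values of the 2 groups did not overlap at all for 0.779% of genes. An unadjusted edgeR p below 0.05 was found for 2086 of the 26191 genes. These figures over all genes are the background for the list counts below. The split between directions moved with the scaling: upper-quartile scaling gave 342 calls, 155 of them higher (45.3%), and limma on the deposited TPM values gave 96 higher and 424 lower. Without N032 the count was 593, with 197 higher and 396 lower. In bulk RNA, fewer cells of a type and less RNA per cell cannot be told apart.

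Each gene was placed by its level in stroma against control CD45.1 marrow, which separates stromal from blood-cell RNA only in part. A gene at least 4 times higher in stroma was called stroma-side, and one at least 4 times higher in marrow marrow-side. The stroma-side class is not made up of stromal genes alone. It held 14 of 25 late erythroid, 12 of 14 early erythroid and 11 of 16 megakaryocyte and platelet genes. Of 11570 stroma-side genes, 58 rose and 35 fell (0.804%). Of 2921 marrow-side genes, 9 rose and 59 fell (2.33%), and of the 11700 in between 55 rose and 175 fell. The stroma level used both stroma groups, so a gene that rose steeply could enter the stroma-side class by its rise. Placed by the untransplanted libraries alone, 39 stroma-side genes rose and 43 fell, and 19 marrow-side genes rose and 30 fell. Without N032, 64 stroma-side genes rose and 67 fell. On TPM values 50 rose and 62 fell, and for marrow-side genes upper-quartile scaling gave 16 and 42. The marrow-side total of 68 dropped to 42 without N005, to 43 without N014 and to 43 without N279, and it was 102 without N032.

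**Figure D1:**
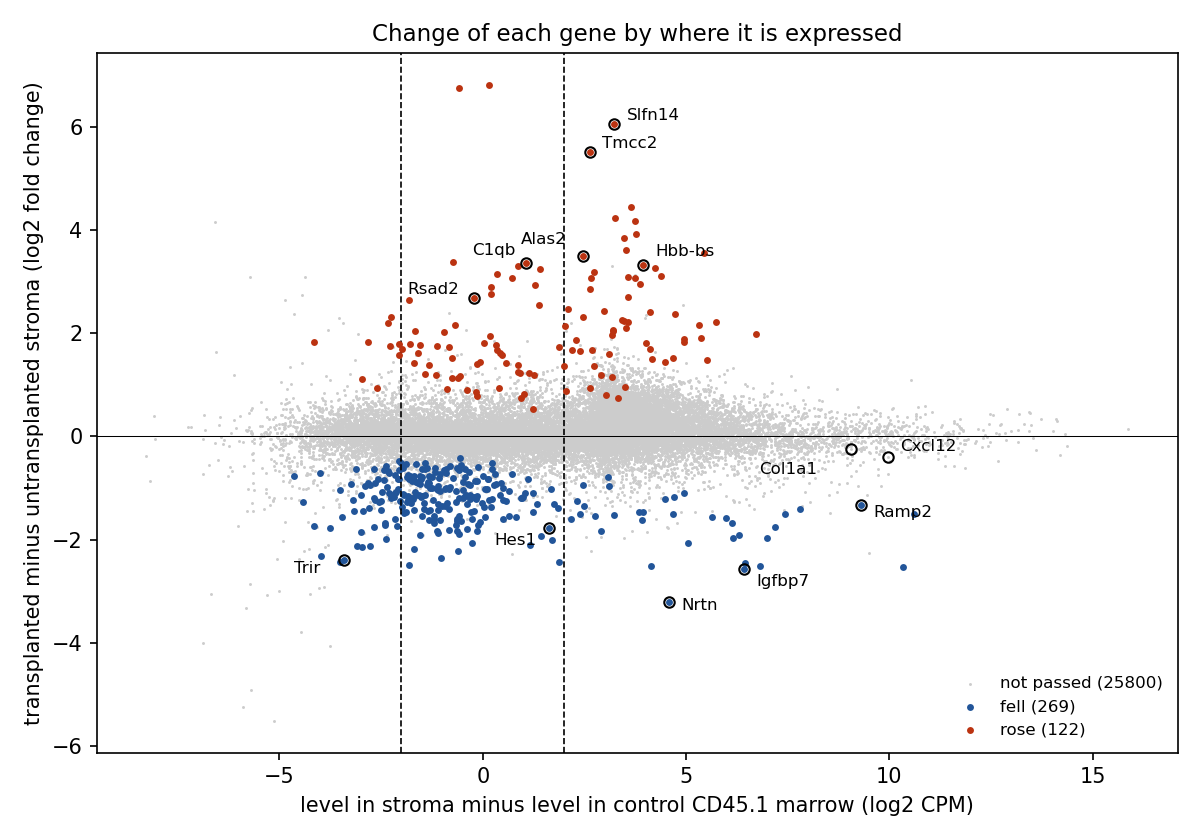
Each point is a gene, with its level in stroma minus its level in control CD45.1 marrow (log2 CPM) on the horizontal axis and its log2 fold change between transplanted and untransplanted stroma on the vertical axis. Dashed lines mark 4-fold differences in level. The niche and collagen genes Cxcl12 and Col1a1 lie far to the right near 0, while the haemoglobin gene Hbb-bs, Alas2, Tmcc2 and Slfn14 lie high on the right.

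Of the 38 gene lists described, that of red-cell genes of the last maturation steps had the most calls. The lists were chosen with earlier results of these data known, so this rank is a description and not independent support. Over all genes tested 0.466% rose and 1.03% fell. Of the 25 genes of this list that were tested, 15 rose and 0 fell. Their median log2 fold change was 1.36, against 0.04 over all genes tested. Summed, the list ran from 4719 over a median of 10016 to 24421 CPM in transplanted stroma and from 2719 over 3396 to 3993 in untransplanted stroma. Every transplanted library was above every untransplanted one, although these genes made up only 0.472% to 2.44% of the scaled counts in transplanted and 0.272% to 0.399% in untransplanted stroma. The highest sum was in N203 and the lowest of the transplanted libraries in N032. Leaving out any single library left 13 to 16 of the 25 genes called. The gate is meant to remove such cells, and how many red-cell precursors passed it in each mouse was not tested.

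**Figure D2:**
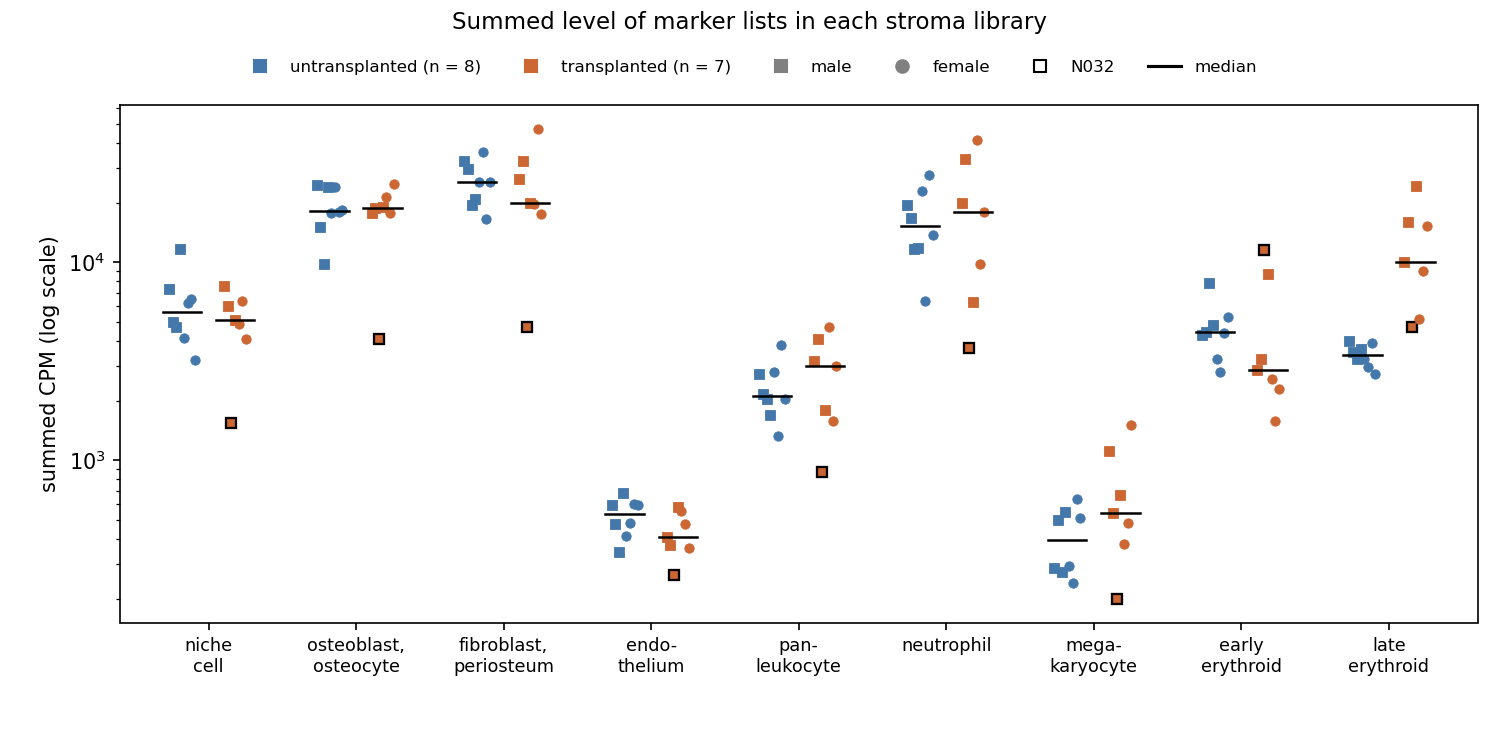
Summed level of 9 marker lists (CPM, log axis) in each stroma library; squares are males, circles females, black outlines N032 and bars medians. The late erythroid sums of the 7 transplanted libraries all lie above those of the 8 untransplanted ones, and the groups overlap for the other 8 lists.

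The 4 adult haemoglobin genes all rose. Hbb-bs, an adult beta-globin gene, lay between 1174 and 9182 CPM (median 3527) in transplanted stroma and between 143 and 620 (median 403) in untransplanted stroma, or 3.33 ± 0.42 on the log2 scale (log2 fold change ± SE; edgeR adjusted p = 0.000793). The groups did not overlap. The other beta-globin gene Hbb-bt rose by a log2 value of 3.10, and the alpha-globin genes Hba-a1 and Hba-a2 by 2.696 and 3.12. The pairs are near-identical, so the division of reads within each pair is uncertain. Alas2, the erythroid enzyme that starts haem synthesis, lay between 49.5 and 515 CPM (median 199) against 8.502 to 26.4 (median 16.9), or 3.50 ± 0.43 on the log2 scale (edgeR adjusted p = 0.00079). Its 2 groups did not overlap either. Fech, the enzyme that ends haem synthesis, rose less, from a median of 148 to 274 CPM (log2 0.94, edgeR adjusted p = 0.0245), and its groups overlapped.

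Genes of the red-cell membrane and cytoplasm rose as well, though not all. Slc4a1, the anion exchanger band 3, had a range of 48.0 to 597 CPM (median 175) in transplanted and 7.61 to 49.1 (median 14.8) in untransplanted stroma (log2 3.31 ± 0.49, edgeR adjusted p = 0.00166). The lowest transplanted library was just inside the untransplanted range. Epb42 rose by 2.06 and Epb41 by 1.75 on the log2 scale. These 2 encode the skeletal proteins 4.2 and 4.1. Bpgm, which makes the 2,3-bisphosphoglycerate that tunes oxygen release, rose by 2.43 without overlap, and Trim58, a ubiquitin ligase of late erythroblasts, by 3.08. Ube2l6 and Isg20 rose by 1.36 and 0.74. Both were counted on the late erythroid list and not on the interferon-stimulated list, and the counts of both lists depend on that choice. The beta-spectrin gene Sptb and the ankyrin gene Ank1 did not pass, with log2 values of 0.46 and 0.02. The haem-iron importer gene Slc25a37 had a value of 0.98 (edgeR adjusted p = 0.0736) and Hemgn one of -0.42.

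Genes of earlier red-cell precursors did not follow. Of 14 early erythroid genes 0 passed (2 at an unadjusted edgeR p below 0.05), with a median log2 fold change of -0.20. Their summed level ran from 1574 over 2844 to 11488 CPM in transplanted and from 2801 over 4427 to 7831 in untransplanted stroma. N032 and N203 were the 2 highest, at 11488 and 8736, and the other 5 transplanted libraries lay between 1574 and 3265. The erythroid transcription factors Gata1 and Klf1 had log2 values of -0.09 and -0.36. Car1, carbonic anhydrase 1, lay between 177 and 3633 CPM (median 366) against 650 to 1954 (median 1137), a log2 value of -0.88 ± 0.54 (edgeR adjusted p = 0.832). Without N032 its value was -1.69 with an adjusted p of 0.00517, and with day of killing as a block it was -1.57 with 0.0206. The block also sets N032 aside, as no untransplanted mouse was killed on its day. These fits are therefore not separate checks. Kel, the Kell blood group gene, had a value of 1.13 (edgeR adjusted p = 0.06), which passed without N032 (0.0356), N204 (0.0391), N269 (0.0424) or N288 (0.0265) and with the block (0.0273).

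Genes outside the list rose more than any member of it. Slfn14, a ribosome-associated endoribonuclease of the Schlafen family, lay between 11.98 and 215 CPM (median 73.9) in transplanted stroma and between 0.402 and 1.90 (median 0.983) in untransplanted stroma, or 6.06 ± 0.57 on the log2 scale (edgeR adjusted p = 0.000227). Tmcc2, which encodes a transmembrane coiled-coil protein, lay between 171 and 3815 CPM (median 1088) against 10.7 to 47.6 (median 22.3), or 5.51 ± 0.63 (edgeR adjusted p = 0.000359). Neither gene's groups overlapped. In transplanted stroma both were highest in N203, the library with the most late erythroid RNA. Both would be placed between the classes by the untransplanted libraries, since Tmcc2 had a median of 20.2 CPM in untransplanted stroma and 19.4 in control marrow on the common scale.

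**Figure D3:**
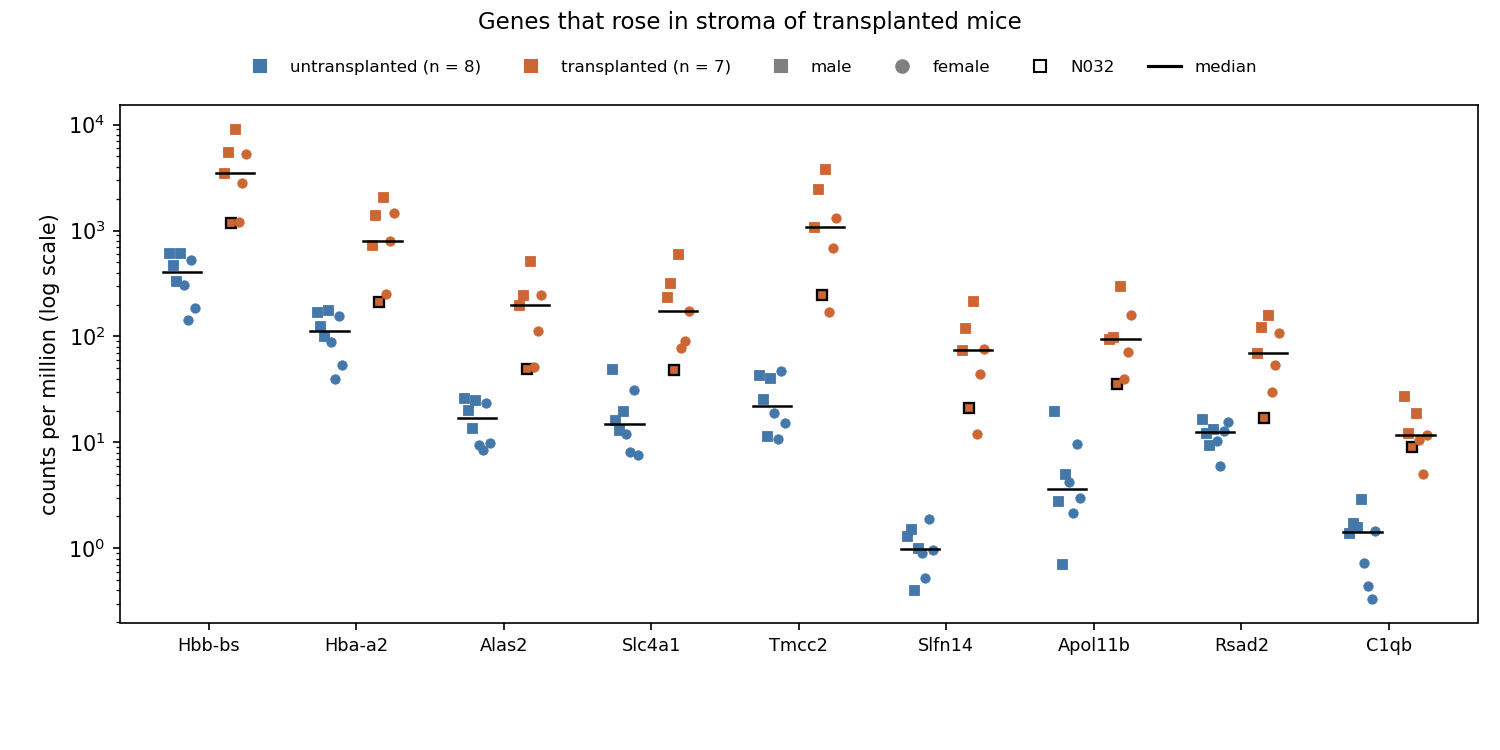
Level of 9 genes that rose (CPM, log axis) in each stroma library, with males as squares, females as circles, N032 outlined in black and bars at the medians. For Slfn14 the lowest transplanted library, at 11.98 CPM, is above the highest untransplanted one, at 1.90.

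Others of this kind were lower in level. Apol11b, of the apolipoprotein L family, lay between 35.8 and 297 CPM (median 94.9) against 0.717 to 19.7 (median 3.61), with a log2 fold change of 4.23 ± 0.63 (edgeR adjusted p = 0.00187). Its neighbour in sequence Apol11a rose by 3.20, and reads of the Apol11 copies cannot be separated with certainty. Bloodlinc, a long noncoding RNA of erythroid cells, lay between 1.27 and 10.3 CPM (median 3.73) against 0.154 to 0.581 (median 0.347), or 3.55 on the log2 scale. Fhdc1, a formin-related gene, lay between 8.51 and 107 CPM (median 35.9) against 2.77 to 4.95 (median 3.29), or 3.24. The groups overlapped for none of these 4. Tcrg-C1, a T-cell-receptor gamma constant segment with near-identical copies, was at 1.41 to 70.3 CPM against 0 to 0.26, and its highest value was in N032; the log2 fold change was 6.75 ± 1.07 with that library and 5.62 without it (edgeR adjusted p = 0.00249 and 0.000398).

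Promoter sequence is shown for 4 of the risen genes, picked because they hold AGATAA or TGATAA near a start. They are therefore not typical of the risen genes. GATA factors, among them the erythroid GATA1, bind such letters. Fhdc1 also held AGATAA, 8 bases before 1 of 2 listed starts, and is not shown. Hbb-bs was looked up too and gave no stretch to show. The stretches come from RefSeq on GRCm38.p6, another build than that of the counts, and lie upstream of annotated exons. Capitals mark AGATAA or TGATAA, which here lie on the opposite strand and so read TTATCT or TTATCA.
Alas2, chrX:150547317-150547374, + strand: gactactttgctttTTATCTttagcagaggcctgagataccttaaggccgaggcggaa
Tmcc2, chr1:132367949-132368048, - strand: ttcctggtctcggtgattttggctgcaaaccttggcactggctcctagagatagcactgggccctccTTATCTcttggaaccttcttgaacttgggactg
Slfn14, chr11:83286727-83286826, - strand: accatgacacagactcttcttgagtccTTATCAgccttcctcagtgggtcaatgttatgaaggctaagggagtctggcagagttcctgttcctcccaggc
Apol11b, chr15:77643287-77643386, - strand: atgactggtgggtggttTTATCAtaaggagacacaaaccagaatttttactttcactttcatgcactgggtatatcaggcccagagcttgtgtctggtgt
The marked letters lie 86 bases before the start of Alas2, 33 before one of 3 listed starts of Tmcc2, 73 before that of Slfn14 and 83 before that of Apol11b. On either strand of the 250 bases before the start, 26 of 82 matched risen genes held AGATAA or TGATAA (31.7%), as did 22 of 206 fallen genes (10.7%), 2152 of 15234 tested genes (14.1%) and 5452 of 32851 RefSeq promoters (16.6%). Of the late erythroid list 17 genes matched and 7 held it (41.2%). A second motif searched, CCACACCC, which factors of the KLF family bind, was held by 3 of 82 risen genes (3.66%), 9 of 206 fallen genes (4.37%), 618 of 15234 tested genes (4.06%) and 1 of the 17 late erythroid genes (5.88%). These are matches of letters, with no test and no measure of binding.

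Some macrophage genes and 2 interferon-stimulated genes rose. Over all genes tested 0.466% rose, with a median log2 fold change of 0.04. Of 22 monocyte and macrophage genes 5 rose and 0 fell, with a median log2 fold change of 0.46. The 3 chains of complement C1q, made by tissue macrophages, were among them. C1qb lay between 5.02 and 27.4 CPM (median 11.8) in transplanted and between 0.333 and 2.93 (median 1.43) in untransplanted stroma, with no overlap (log2 3.36 ± 0.34, edgeR adjusted p = 0.000286). C1qa rose by 3.07 and C1qc by 2.56. Saa3, an acute-phase serum amyloid gene, had a range of 2.24 to 25.9 CPM (median 4.89) against 0.36 to 1.59 (median 0.961), or 2.77 ± 0.44 (edgeR adjusted p = 0.00278), and Ms4a7 rose by 1.94. General macrophage genes did not pass: Csf1r, the receptor of the macrophage growth factor, had a log2 value of 0.57 and the lysosomal gene Cd68 one of 0.35. The mannose receptor gene Mrc1 had -1.33 (edgeR adjusted p = 0.0608).

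Of 26 interferon-stimulated genes 2 rose and 0 fell, with a median of 0.12 against 0.04 over all genes, of which 0.466% rose. Rsad2, the antiviral enzyme viperin, lay between 16.8 and 161 CPM (median 70.2) against 6.04 to 16.7 (median 12.5), or 2.68 ± 0.39 on the log2 scale (edgeR adjusted p = 0.00166). The groups did not overlap, though the lowest transplanted library, N032, stood next to the highest untransplanted one. Isg15, a ubiquitin-like modifier, rose from a median of 12.4 to 35.0 CPM (log2 1.39, edgeR adjusted p = 0.00542). These 2 classical members did not pass: Ifit1 had a value of -0.05 and Irf7 of 0.13.

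Few markers of the stromal cells themselves passed. The mesenchymal, bone, cartilage, fibroblast, matrix, vessel, fat, nerve-sheath and muscle lists held 197 tested genes together, of which 153 were stroma-side. Among these 197, 0 rose and 1 fell (0.508% called, against 1.49% of all genes). Their median log2 fold change was -0.03, against 0.04 over all genes. The median SE was 0.30, so a gene that did not pass is not shown to be unchanged. The median log2 fold change turned to 0.03 under upper-quartile scaling and 0.04 without N032. The count that fell was 6 with DESeq2, 3 with day of killing as a block, 3 without a filter on low counts, 2 without N288 or N051 and 0 without N002, N014, N204 or N203.

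Of 22 niche-cell genes 0 passed, with a median of -0.28 and all but 3 values below 0. An unadjusted edgeR p below 0.05 was found for 2 of them, against 2086 of all 26191 genes. The summed level of the 22 genes ran from 1534 over 5137 to 7561 CPM in transplanted and from 3198 over 5613 to 11668 in untransplanted stroma. N032 was the lowest and the next lowest transplanted library had 4090. Cxcl12 lay between 735 and 3481 CPM (median 2094) against 932 to 6244 (median 2240), a log2 value of -0.41 ± 0.33 (edgeR adjusted p = 0.938). The ranges overlapped, and the highest libraries were untransplanted. Kitl, stem cell factor, had a log2 value of -0.27, Lepr, the leptin receptor, -0.29, and Angpt1, a ligand of the receptor Tie2, 0.04. The lowest p in the list was that of Adipoq, adiponectin, with -0.96 (edgeR adjusted p = 0.365). An adjusted p above the threshold does not show that these levels were equal.

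Bone, cartilage and matrix genes showed 0 passed genes in each list, of 20 for osteoblasts and osteocytes, 14 for chondrocytes, 20 for fibroblasts and periosteum, 22 for fibrillar matrix and 16 for basement membrane. The medians were -0.11, 0.29, -0.06, 0.08 and -0.04, and 0, 2, 0, 1 and 0 genes had an unadjusted edgeR p below 0.05. Osteoblast genes summed to 4097 over 18756 to 24893 CPM in transplanted and 9777 over 18112 to 24447 in untransplanted stroma, where the lowest value was again N032. Col1a1, the main collagen of bone and of fibrosis, lay between 644 and 3800 CPM (median 2995) against 1234 to 6664 (median 1956), a log2 value of -0.25 ± 0.40 (edgeR adjusted p = 0.998). Tgfb1, a cytokine tied to marrow fibrosis, had a value of -0.12. Of 20 genes of the TGF-beta pathway 0 passed (median 0.09; 1 at an unadjusted p below 0.05). Mmp14, a membrane-bound matrix protease, had -1.08 (edgeR adjusted p = 0.066), and passed without N288 (0.0253) and with the block (0.0109). Col10a1, of growth-plate cartilage, had 1.09 (0.369).

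Of 24 endothelial genes 1 fell, with a median of -0.18. Ramp2, which turns the calcitonin receptor-like receptor into a receptor for adrenomedullin, lay between 5.59 and 34.4 CPM (median 14.6) in transplanted and between 28.6 and 67.0 (median 37.3) in untransplanted stroma (log2 -1.33 ± 0.30, edgeR adjusted p = 0.0336). The groups overlapped, and the call was lost (adjusted p 0.0565 to 0.0986) on leaving out N093, N051, N280, N002, N005, N014, N204, N203 or N279. Cdh5 had a value of -0.37 and Pecam1 of 0.13. Plvap, of fenestrated endothelium, had -0.999 (edgeR adjusted p = 0.112). Of 6 sinusoidal genes 0 passed (2 at an unadjusted p below 0.05), with a median of -0.38. The scavenger receptor gene Stab2 had -1.17 (edgeR adjusted p = 0.0957; 0.0415 without N051), and the nuclease gene Dnase1l3 had -1.26 (0.057; 0.0102 with the block, 0.0269 without N093, 0.035 without N051 and 0.0499 without N005). The 12 arteriolar genes and the 12 pericyte and smooth muscle genes had 0 passed, with medians of -0.08 and 0.27, and so had 12 adipocyte (-0.30), 11 Schwann cell (0.08) and 13 skeletal muscle genes (0.22), with 0, 2, 3, 0 and 1 at an unadjusted p below 0.05 in this order. Cfd, the fat-cell complement factor D, had -2.28 (edgeR adjusted p = 0.0705), and passed without N280 (0.0383) or N279 (0.00908).

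The genes described next fell the most or are related to one that did. The cell-type lists held only 197 stromal and 224 blood-cell genes of 26191 tested, so most of any set lies outside them. Igfbp7, a secreted binding protein of insulin-like growth factors, was the most abundant of the 10 lowest log2 fold changes. It lay between 18.5 and 96.2 CPM (median 68.3) in transplanted and between 149 and 765 (median 341) in untransplanted stroma, without overlap (log2 -2.58 ± 0.39, edgeR adjusted p = 0.00211). It was the only one of 11 genes of the insulin-like growth factor list to pass. The level in control marrow was 1.46 CPM on the common scale against 306 in untransplanted stroma. Nrtn, the neurotrophic ligand neurturin, had the lowest log2 value, -3.21 ± 0.51 (edgeR adjusted p = 0.00244), with 0.29 to 8.02 CPM (median 1.45) against 6.16 to 45.05 (median 16.7). Its groups overlapped, and the adjusted p was 0.0729 in a fit with no term for sex.

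Of 23 Notch and Wnt genes, Hes1 and Fzd1 fell, with a median log2 fold change of -0.05 over the list. Fzd9, a Wnt receptor of osteoblasts that is not on that list, lay between 2.90 and 20.6 CPM (median 6.99) against 26.8 to 87.3 (median 45.4), without overlap (log2 -2.52 ± 0.38, edgeR adjusted p = 0.00193). Hes1, the repressor that Notch induces, lay between 18.2 and 111 CPM (median 44.5) against 103 to 221 (median 159), or -1.78 ± 0.30 (edgeR adjusted p = 0.00391). The overlap came from 1 transplanted library. Fzd1, another Wnt receptor, fell by 1.55 on the log2 scale (edgeR adjusted p = 0.0252). Its call was lost (adjusted p 0.0505 to 0.0814) without N280, N002, N283, N005, N203 or N279. Nog, the antagonist noggin, fell by 1.96 (0.0106, but 0.144 with no sex term). Nkx3-2, a homeobox gene of cartilage, had -1.90 (edgeR adjusted p = 0.0395), a call lost (0.0502 to 0.119) on leaving out any library but N277, N288 or N032.

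**Figure D4:**
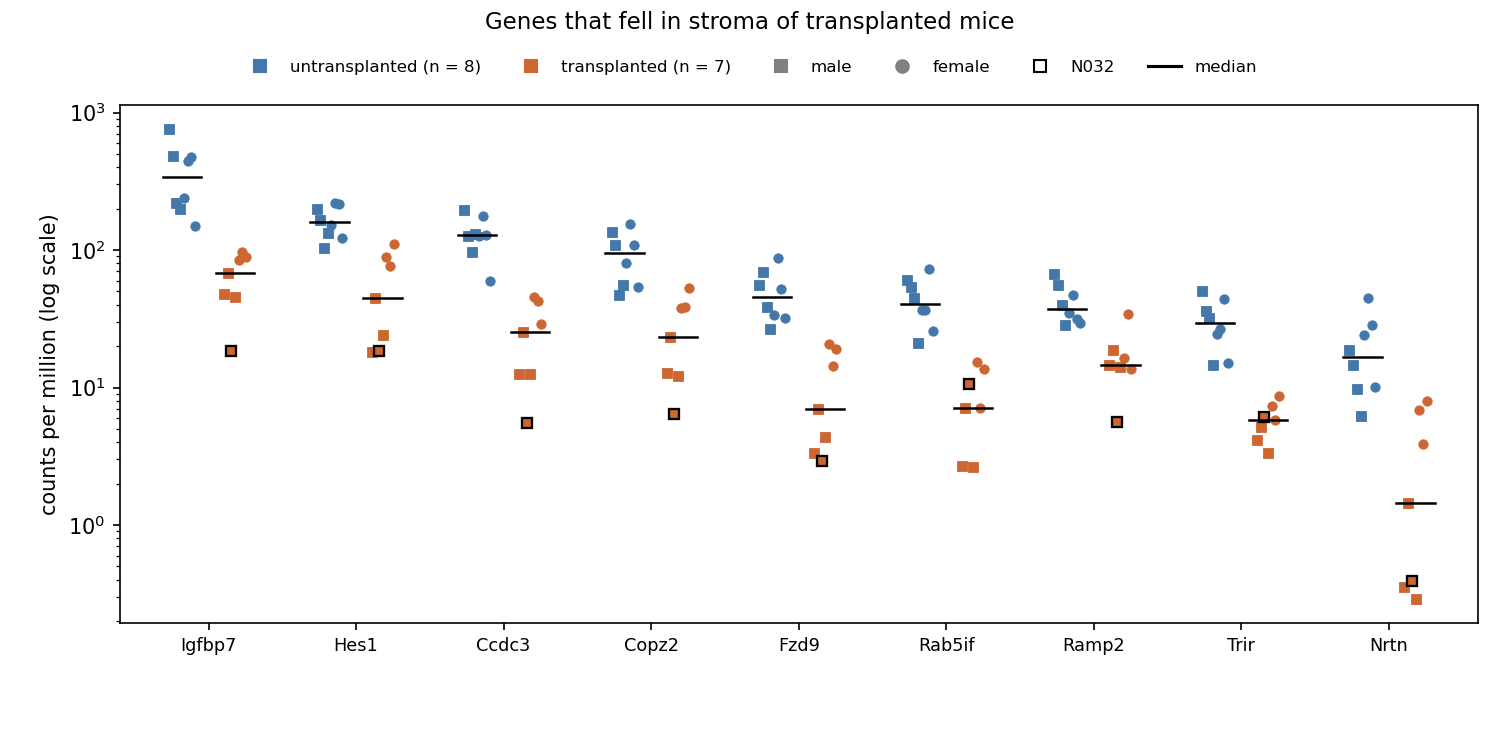
Level of 9 genes that fell (CPM, log axis) in each stroma library, with males as squares, females as circles, N032 outlined in black and bars at the medians. The transplanted libraries of Igfbp7 end at 96.2 CPM and the untransplanted ones start at 149, while those of Ramp2, Nrtn, Hes1 and Copz2 overlap.

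Several others had little in common by function. Ccdc3, a secreted coiled-coil protein, lay between 5.53 and 45.21 CPM (median 25.4) against 59.8 to 197 (median 128.4), or -2.53 ± 0.37 on the log2 scale (edgeR adjusted p = 0.00166). Copz2, a subunit of the coat of Golgi vesicles, fell by 1.98, from a median of 94.8 to 23.4 CPM. Mxra7, linked to matrix remodelling, fell by 2.06 (edgeR adjusted p = 0.0138; 0.0585 with the block). The cytokine gene Ctf1 (cardiotrophin) fell by 2.43 from a median of 4.21 to 0.768 CPM.

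Some fallen genes are broadly expressed and were higher in marrow than in stroma. Trir, a ribonuclease that interacts with telomerase RNA, lay between 3.35 and 8.75 CPM (median 5.84) in transplanted and between 14.7 and 50.6 (median 29.3) in untransplanted stroma (log2 -2.40 ± 0.29, edgeR adjusted p = 0.000734). Rab5if, which encodes a membrane protein that assists membrane protein insertion, lay between 2.66 and 15.3 (median 7.11) against 20.9 to 73.3 (median 40.5), or -2.44. Neither overlapped. In control marrow both were higher than in untransplanted stroma, 110 against 25.5 CPM for Trir and 158 against 35.2 for Rab5if on the common scale. Endog, a mitochondrial nuclease, fell by 2.50 from a median of 4.07 to 0.839 CPM. GC content moved with the fall: of genes in the highest of 10 equal bins of GC (57.3% to 74.2%), 3.58% fell, against 1.12% to 1.90% in the other 9 bins. A fit with a GC offset called 391 genes, of which 372 were shared, and Nkx3-2 (edgeR adjusted p = 0.251) and Txndc5 (0.0518) no longer passed.

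The other blood-cell lists gave few calls. Of 17 pan-leukocyte genes 0 passed (median 0.25; 0 at an unadjusted edgeR p below 0.05), and their sum ran from 871 over 2994 to 4706 CPM against 1329 over 2105 to 3823. Ptprc had a log2 value of 0.27. There were also 0 passed genes among 20 neutrophil (median 0.24), 18 B-cell (0.26), 18 T and NK cell (-0.12), 17 dendritic (-0.43), 16 basophil, mast cell and eosinophil (-0.43) and 12 osteoclast genes (0.26), with 1, 2, 3, 2, 3 and 2 at an unadjusted p below 0.05. The cytokine gene Il1b had a value of 0.47 and S100a8 one of 0.31. Of 14 plasma-cell genes 1 fell (median -0.18), Txndc5, a folding enzyme, with -0.86 (edgeR adjusted p = 0.0494). It failed in 22 of 34 alternatives, among them the block (0.0975). Of 15 stem and progenitor genes 1 rose (median 0.04), the surface marker Slamf1, with 1.43 (edgeR adjusted p = 0.0323; 0.0685 with the block). The Slamf1 call was lost (0.056 to 0.14) without N277, N208, N288, N051, N280, N002, N005, N203 or N279.

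Megakaryocyte and platelet genes lay on 1 side without passing. All 16 had log2 values above 0, with a median of 0.91, and 0 passed, although 8 had an unadjusted edgeR p below 0.05. Their sum ran from 199 over 544 to 1513 CPM in transplanted and from 239 over 397 to 639 in untransplanted stroma, so the groups overlapped. The platelet chemokine Pf4 had 0.70 (edgeR adjusted p = 0.841; 0.0267 with the block), and the integrin gene Itga2b had 1.21 (0.188; 0.0293 without N032 and 0.00843 with the block). Of these 16 genes 11 were stroma-side, as were 12 of the 14 early erythroid genes, whereas 0 of the 17 pan-leukocyte genes were.

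Signalling and housekeeping lists gave few calls. Of 20 JAK-STAT genes 0 passed (median 0.15; 4 at an unadjusted edgeR p below 0.05). Jak2, whose mutant and normal forms gene counts cannot separate, had 0.11, the kinase gene Pim1 0.68, and the survival gene Bcl2l1, also high in erythroblasts, 1.21 (edgeR adjusted p = 0.0897; 0.00497 without N032). Of 21 NF-kB genes 0 passed (median 0.23), and so did 0 of 20 mitosis (-0.12), 20 DNA replication (-0.20), 22 immediate-early and heat shock (0.10), 21 glycolysis (0.11) and 40 ribosomal protein entries (-0.07). Of these, 1 NF-kB gene and 0 of the others had an unadjusted p below 0.05. Of 11 mitochondrially encoded genes 1 fell (median -0.20), mt-Nd3, with -1.19 from a median of only 6.47 CPM (edgeR adjusted p = 0.0246; 0.218 with the block). Its call was lost (0.0516 to 0.0657) without N093, N002, N005, N269, N014 or N203.

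The size of the change varied among the transplanted mice. It was read over the 94 risen genes that averaged log2 CPM 1 or more. Their median log2 distance from the untransplanted mean was 0.65 in N204, 0.76 in N032, 1.16 in N269, 1.97 in N279, 2.04 in N005, 2.37 in N014 and 2.86 in N203. Over the 257 fallen genes above the same limit the median was -1.20 to -1.62 in the 4 males and -0.70 to -0.89 in the 3 females. These genes were chosen for their difference, so only the spread among mice is read here. A test of whether the effect depended on sex called 0 of 26191 genes (0%) with edgeR, DESeq2 and voom, and 745 had an unadjusted p below 0.05 (2.84%). Without N014 it called 5. The smallest p belonged to Syap1, Mgat2, Asap2, Ring1 and Tesc (edgeR adjusted p = 0.98). Males alone gave 125 calls (27 higher, 98 lower) and females alone 0, with 1365 at an unadjusted p below 0.05. In females alone the late erythroid list had 0 calls and a median of 1.17, and in males alone 5 calls and a median of 1.48.

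The 7 transplanted mice had final blood chimerism values of 0.63 to 5.99, and the labels give no unit. A slope of expression on its log2 value was called for 0 of 20516 genes (0%), with 680 at an unadjusted p below 0.05, and DESeq2 called 17. Mogat2, Ldhc, Msra, Cebpe and Krt19 had the smallest p (edgeR adjusted p = 1). The mouse with the highest late erythroid sum, N203, had a chimerism of 1.77 and the one with the lowest, N032, had 2.06.

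The same mice also gave host CD45.1 and donor CD45.2 marrow libraries (n = 7 each), which were compared with 8 libraries of control CD45.1 marrow. Of 14073 genes, 2312 passed between host and control marrow (16.4%), and of 13906 genes, 6360 passed between donor and control marrow (45.7%). Host and donor share these controls. Whether a gene changed more in stroma than in host marrow was tested as an interaction over 22991 genes, of which 619 differed (2.69%), 248 of them higher in stroma and 371 lower. Without N032 the count was 1713, with 671 higher and 1042 lower. That fit had no term for the animal, although stroma and marrow came from the same 15 mice. With each animal as a block, 418 genes differed (140 higher, 278 lower; 400 shared). Of the 40 named genes that had passed in stroma, 25 differed from host marrow, and 23 with the block. These genes were chosen for their change in the same stroma libraries. That choice favours a difference from host marrow, so the count cannot be set against the 2.69% of all genes.

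The late red-cell genes did not pass in host marrow. The change of Alas2 was -0.21 ± 0.36 in host marrow, a difference of 3.78 (edgeR adjusted p = 0.000192). Slfn14 had -0.19 in host marrow (difference 6.28, edgeR adjusted p = 8.08e-06), Tmcc2 had 0.05 (5.599, 8.92e-06) and Rsad2 had -0.29 (3.03, 0.000147). Of the 25 late erythroid genes 0 passed in host marrow, 4 rose and 5 fell in donor marrow, and 16 changed more in stroma than in host marrow (11 with each animal as a block). Igfbp7 too differed from its host value (-2.39, edgeR adjusted p = 0.00708). Its medians were only 1.31 CPM in host and 1.46 in control marrow, against 306 in untransplanted stroma. Of the 14 early erythroid genes 13 rose in donor marrow, with a median of 1.73.

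The C1q genes had changed in the host cells as well. C1qb rose by 3.68 ± 0.22 in host marrow, and the difference from stroma was -0.29 (edgeR adjusted p = 0.881). C1qa, C1qc and Saa3 rose there by 4.08, 4.16 and 3.02, and the differences from stroma did not pass (edgeR adjusted p = 0.482, 0.0507 and 1). Hes1 fell in host marrow by 0.67 on the log2 scale (edgeR adjusted p = 0.00563) and in donor marrow by 1.85, and its fall in stroma differed from the host value by -0.99 (0.285). Of the monocyte and macrophage list, 16 of 20 tested genes rose in host marrow. Carry-over of host macrophage RNA into the stroma gate and a change in CD45-negative cells cannot be told apart from these counts.

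**Figure D5:**
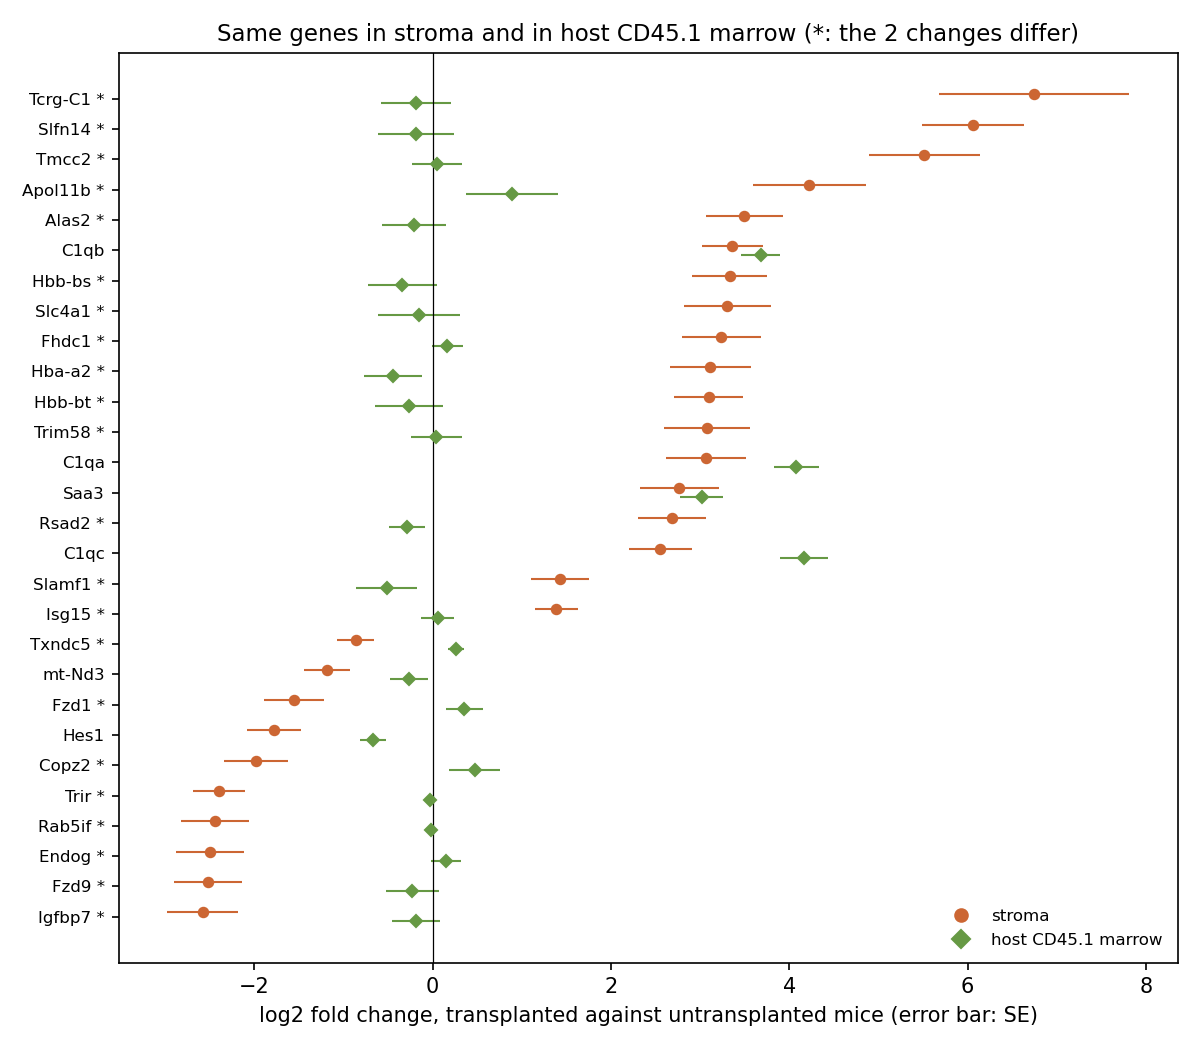
Log2 fold change between transplanted and untransplanted mice, with its SE, in stroma (circles) and in host CD45.1 marrow (diamonds) for 28 genes that passed in stroma and have an SE in both. Stars mark the 22 whose 2 changes differ, which the choice of genes by their change in stroma favours. C1qa, C1qb, C1qc and Saa3 rose in both.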

How the data were processed

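Stroma RNA came from crushed bones digested with Liberace TM and DNase I, treated with red-cell lysis buffer, sorted, extracted with TRIzol and concentrated, and made into libraries with a low-input kit, per the labels' protocols. They were run 2 times on a NovaSeq X. Host, donor and control marrow libraries used a strand-specific poly-A kit. The authors aligned reads to GRCm39 with STAR 2.7.3a and made gene counts with featureCounts of Subread 1.6.2, per the submitters' processing notes. The annotation, the strand setting, how the 2 runs were merged and how the deposited TPM values were made are not given in the sources used here. Without the strand setting, overlapping and antisense genes cannot be told apart.

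The deposited counts of the 15 stroma libraries were tested with edgeR 4.0.16 (R 4.3.3): filterByExpr, TMM scaling and a quasi-likelihood fit with terms for sex and group, with Benjamini-Hochberg adjustment over all 26191 tested of 56941 genes at 0.05. The comparison with host marrow was 1 fit over both kinds of library with a term for sex, and a fit with each animal as a block was added after the data were seen. Levels are TMM-scaled CPM, and levels across stroma and marrow use 1 common scaling. DESeq2 1.42.0, limma 3.58.1 on voom weights and on log2 TPM values (pseudocounts 1 and 0.1), other scalings, filters, covariates and leaving out each library were alternatives. The tests were checked on simulated data. Members and lists were chosen with earlier results of these data known.

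The genes named were, among passed genes averaging log2 CPM 1 or more and leaving aside unnamed gene models, pseudogenes and antigen-receptor segments, the 10 highest and 10 lowest log2 fold changes, the same among stroma-side genes, up to 4 members of each list by smallest p, and a fixed set. Tcrg-C1 is such a segment and should have been left aside. Some genes that the rule names are not reported here. Other members of the lists, such as Bpgm, were picked for the text after their values were seen.

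Of the transplanted libraries, 5 share a day of euthanasia with 1 or more untransplanted ones, per the labels, and these days were used as a block in an alternative. Deviations from the group means correlated across genes by 0.506, 0.277, 0.137, 0.125 and 0.0438 in these 5 pairs. N005 and N032 share their day with no untransplanted library, so the group difference in the block fit rests on these 5 pairs. That fit had no term for sex, which the libraries of each pair share. All 15 libraries matched the labelled sex.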

Additional observations from a re-analysis of the deposited data

Results flagged for a closer look

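A value that stood far from the rest of its own group, by Dixon's 95% limit, was found in 18 of 160 sets checked (11.2%). The limit gives about 1 in 20 for independent values with a normal distribution. The sets checked share libraries and some genes, and their levels were not put on a log scale. The 11.2% can therefore not be set against that rate. Among untransplanted stroma, N002 had a total of 143 (in units of 1000000 counts), an Apol11b level of 19.7 CPM and an Apol11a level of 3.14 CPM, all far above the others. N288 had 13700 CPM summed over the mitochondrially encoded genes, N280 had 7.72 CPM of Ctf1 and N208 had 1.97 CPM of C1qa.

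Among transplanted stroma, N032 had the lowest median correlation with other libraries (0.908) and low sums of the osteoblast list (4100 CPM), fibrillar matrix (3110), JAK-STAT genes (947), with the highest sum of the ribosomal protein list (38100) and a Tcrg-C1 level of 70.3 CPM. N203 had the highest Alas2 (515 CPM), Apol11a (26.5) and B-cell list (1190). N279 was apart in the skeletal muscle list (110 CPM) and Ctf1 (2.28), and N005 in Saa3 (25.9).

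The change in stroma differed from that in host marrow of the same mice for 25 of 40 genes, by the interaction test of edgeR. Of these, 24 are given here. The 40 genes had been chosen because they passed in the same stroma libraries, which favours a difference. The log2 difference, stroma minus host, was 7.61 for Tcrg-C1, 6.28 for Slfn14, 5.6 for Tmcc2, 3.78 for Alas2, 3.7 for Hbb-bs, 3.6 for Slc4a1, 3.59 for Hba-a2, 3.4 for Hbb-bt, 3.32 for Apol11b, 3.2 for Fhdc1, 3.19 for Trim58, 3.03 for Rsad2, 1.99 for Slamf1 and 1.42 for Isg15. It was -1.11 for Txndc5, -1.88 for Fzd1, -2.26 for Fzd9, -2.34 for Trir, -2.37 for Rab5if, -2.39 for Igfbp7, -2.46 for Copz2, -2.62 for Endog, -2.76 for Ctf1 and -4.1 for Nrtn. Nrtn and Ctf1 were too low in marrow to be tested there. Their medians in host and control marrow were 0.414 and 0.184 CPM for Nrtn and 0.557 and 0.372 CPM for Ctf1, so their differences rest on counts near 0. Low marrow medians were also found for Igfbp7 (1.31 and 1.46 CPM), Fzd9 (0.814 and 0.922) and Copz2 (0.622 and 0.444). With each animal as a block, Slamf1 no longer passed. The 2 kinds of library were made with different kits.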

How the results depend on the processing

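The 391 calls became 741 with DESeq2, 258 with a fold minimum of 1.2, 125 in males alone, 0 in females alone and 4 with late erythroid RNA as a covariate. That covariate did not overlap between the groups, so it and the group cannot be told apart. For stroma-side genes (93) the same settings gave 214 with DESeq2, 32 in males, 0 in females and 2 with the covariate. For marrow-side genes (68) they gave 135 with DESeq2, 39 with the fold minimum, 19 in males, 0 in females, 0 with the late erythroid and 108 with a pan-leukocyte covariate, and 154 and 16 where the class limit was 2-fold and 8-fold. The class limits from untransplanted stroma alone, the GC offset, the joint fit without N032 (1713) and the list counts without single libraries were chosen after the data were seen. DESeq2 called 17 chimerism slopes. The difference in library totals (transplanted minus untransplanted, units of 1000000 counts) turned to 1.188 by medians. The cause of these moves was not tested.

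Leaving out 1 library at a time gave 272 to 593 calls, 68 to 131 stroma-side, 42 to 102 marrow-side, 0 to 5 for the sex interaction, 0 for the slope and -16.39 to -3.176 for the totals. With day of euthanasia as a replicate block there were 295 calls (126 higher, 169 lower, 227 shared), 80 stroma-side and 48 marrow-side. Of 40 named calls the block lost 4: Mxra7, Slamf1, mt-Nd3 and Txndc5. All 40 kept their direction in 34 alternatives, and 0 passed in every one.

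Counts thinned to the smallest library total gave 383 calls, of which 368 were shared. Of 148 named genes not called, 125 were called in no alternative.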
